A study of Homo sapiens with 6 samples.

Results

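Oxidative phosphorylation is described here through 111 of the 36601 genes in the deposited matrices, set against each other by the genome that encodes them. Members were chosen by gene symbol: the NDUF subunit and assembly families, UQCR, COX4 to COX8, ATP5, SDHA to SDHD, CYC1, CYCS and every name beginning with MT-. The rule left out 3 antisense or divergent transcripts (NDUFB2-AS1, NDUFV2-AS1 and NDUFA6-DT). The choice used no measured value; 98 members are encoded in the nucleus and 13 in mitochondrial DNA.

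All libraries came from the established neuroblastoma line SK-N-BE(2)-C and were made with Seq-Well S3, in which each cell settles in a tiny well beside a bead whose oligos tag its RNA. The 6 libraries were 2 with DMSO (the solvent control), 2 with TSA (commonly short for trichostatin A, which blocks histone deacetylases) and 2 with E6R. No genetic change is labelled in any of them, and the cultures differ by agent alone as far as the labels go. The sources used here give neither dose nor time nor the structure of E6R, and nothing states whether replicates were separate cultures, so p-values measure the spread between these libraries, which may be technical.

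The respiratory chain passes electrons from NADH (complex I) and succinate (complex II) through complex III and cytochrome c to oxygen at complex IV, and complex V, the ATP synthase, uses the proton gradient that the pumping complexes build. Complexes I, III, IV and V are mosaics: a few membrane-embedded subunits are made from mitochondrial DNA, which is transcribed from both strands as long precursors that are then cut, and the remaining subunits come from nuclear genes. Complex II is entirely nuclear encoded. Neuroblastoma lines, like other dividing tumour cells, need both sets of genes to assemble working complexes.

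Cells were barcodes with at least 500 genes and at most 20% of UMIs (unique molecular identifiers, counted molecules) from the MT- genes; this cap acts on the quantity measured, so results without it are given below. There were 17589 cells, 1861 to 3946 per library, and 4206366 to 26180262 UMIs per library sum, with both DMSO sums shallower than the others. Median UMIs per cell lay between 1053.5 and 1880. Pairs of libraries shared 11 to 58 cell barcodes, at most 2.11% of the cells of the smaller library. All 11 adrenergic neuroblastoma markers checked were detected in each library, at a summed 4159 to 6532 CPM (UMIs scaled to one common library size), while 4 immune markers summed to 7.83 to 13.8 CPM with PTPRC, CD3E or LYZ at 0 in every library. Mesenchymal or fibroblast markers (7 genes, among them VIM) summed to 1164 and 733 CPM under DMSO, 3306 and 2190 under TSA and 1966 and 1265 under E6R, and their part in the results below was not tested. The members did not all move with the sum. For TSA against DMSO, 5 of the 6 tested had a fitted log2 fold change above 0, and COL1A2 had -3.89. For E6R against DMSO, 5 lay above 0 and 1 was at -4.10.

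The mitochondrial-encoded share of UMIs differed between treatments far more than the nuclear-encoded share. The 13 mitochondrial genes took 5.83% and 6.20% of UMIs in the DMSO libraries, 6.08% and 9.71% in the TSA libraries, and 1.55% and 1.51% in the E6R libraries. Both E6R libraries lay below the other 4, and TSA replicate 2 lay above all the rest while TSA replicate 1 sat between the DMSO libraries. Without the cap on MT- UMIs the shares were 6.41% and 6.53% under DMSO, 6.76% and 10.8% under TSA, and 1.62% and 1.70% under E6R. There, in cells with at least 1000 genes and over all deposited barcodes, both TSA libraries lay above both DMSO libraries. With a cap of 10% TSA replicate 1 (4.33%) again lay between the DMSO libraries (4.24% and 5.41%). It lay below both with cells thinned to 1000 UMIs (6.22% against 7.11% and 6.41%). The same held without the 5% of cells with most UMIs (6.06% against 7.07% and 6.58%). It also held in cells with at least 300 genes (6.08% against 6.10% and 6.62%). The position of TSA replicate 1 thus depended on the filter. The E6R mean of 1.53% ± 0.0283 (SD, n = 2) was 0.255 times the DMSO mean of 6.01% ± 0.264 (SD, n = 2).

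The 98 nuclear members together took 1.74% and 2.07% of UMIs under DMSO, 1.84% and 1.78% under TSA, and 2.15% and 2.32% under E6R. E6R was thus higher in both libraries, but a share of all UMIs moves when the mitochondrial share does. Over the UMIs that were not mitochondrial, the nuclear members took 1.85% and 2.21% under DMSO, 1.96% and 1.97% under TSA, and 2.18% and 2.36% under E6R, and there the E6R and DMSO libraries overlapped.

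**Figure D1:**
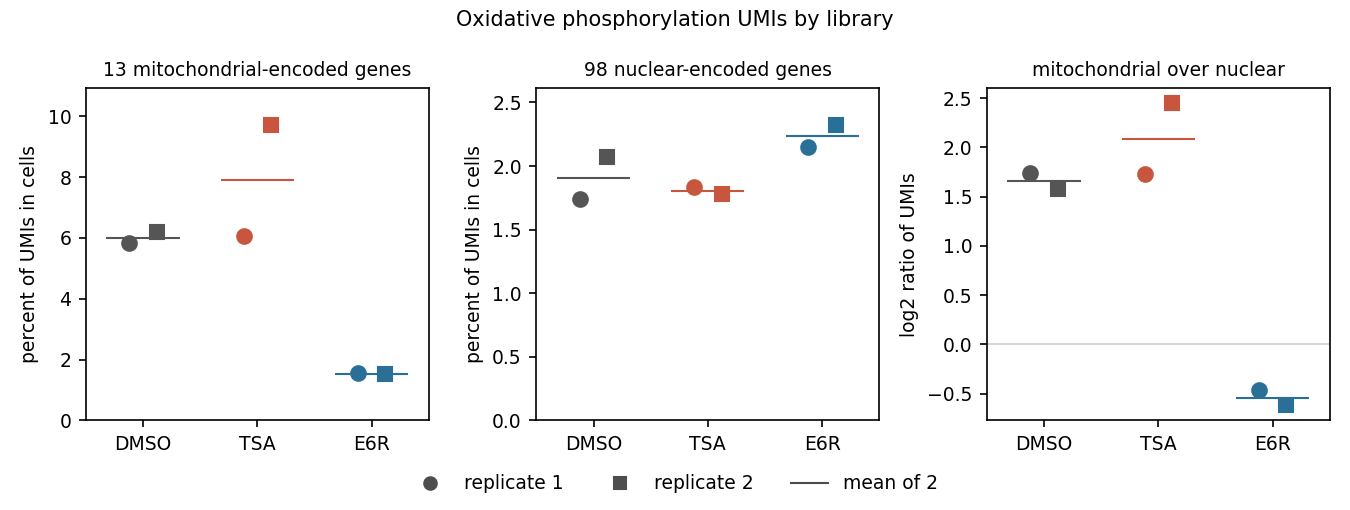
Percent of cell UMIs from the 13 mitochondrial-encoded genes (left), percent from the 98 nuclear-encoded genes (middle) and the log2 ratio of the first to the second (right), for each library of DMSO, TSA and E6R; circles are replicate 1, squares replicate 2, and lines the mean of 2. The E6R libraries sit at 1.55% and 1.51% on the left and are the only libraries with a ratio below 0 in these sums. In cells with under 4000 UMIs the E6R ratios were above 0.

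The ratio of mitochondrial to nuclear UMIs within a library does not depend on scaling between libraries. On the log2 scale it was 1.74 and 1.58 under DMSO, 1.73 and 2.45 under TSA, and -0.47 and -0.62 under E6R. E6R lay 2.21 log2 units below DMSO (difference -2.21; exact two-sided permutation test, p = 0.333, adjusted over the 3 contrasts 0.5) and 2.63 below TSA (-2.63; exact permutation p = 0.333, adjusted 0.5), with no overlap in either case. With 2 libraries against 2, 0.333 is the smallest p this exact test can give. TSA and DMSO differed by 0.43, with overlapping libraries (exact permutation p = 0.667, adjusted 0.667). Leaving out TSA replicate 2 took the TSA difference to 0.06, and leaving out TSA replicate 1 took it to 0.79. Without the cap on MT- UMIs the log2 ratios were 1.89 and 1.67 under DMSO, 1.90 and 2.63 under TSA, and -0.40 and -0.45 under E6R. TSA and DMSO then did not overlap, though TSA replicate 1 lay close to DMSO replicate 1.

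All 4 mosaic complexes had the lower ratio under E6R. In complex I the log2 ratio was 2.12 and 1.70 under DMSO, 1.90 and 2.69 under TSA and -0.51 and -0.49 under E6R, a difference of -2.41 from DMSO. For complex III, where the single mitochondrial gene is MT-CYB, the E6R libraries were at -1.32 and -2.22 against 0.14 and 0.25 under DMSO (difference -1.96). Complex IV gave 0.61 and 0.54 under E6R against 2.48 and 2.52 (difference -1.92), and complex V gave -1.11 and -1.58 against 1.11 and 0.997 (difference -2.40). In each complex E6R lay below both DMSO libraries, the exact permutation p was 0.333, and differences among the complexes were not tested.

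The gap was present in shallow and deep cells alike, and the ratio itself was lower in the deepest cells under DMSO and under E6R. In cells with under 1000 UMIs the log2 ratio was 2.18 and 1.81 under DMSO and 0.43 and 0.64 under E6R. In cells with 4000 UMIs or more it was 1.10 and 1.17 under DMSO and -0.82 and -0.96 under E6R. The E6R ratio was below 0 only in this class. It was 0.51 and 0.74 from 1000 to under 2000 UMIs, and 0.34 and 0.69 from 2000 to under 4000. In all 4 depth classes the E6R libraries were the lower ones, with no overlap with DMSO. In that deepest class mitochondrial UMIs made up 1.22% and 1.23% with E6R, against 3.80% and 4.78% with DMSO and 6.06% and 9.43% with TSA. Under TSA the ratio was 1.44 and 2.44 in the shallowest class and 1.73 and 2.43 in the deepest.

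With every cell thinned to 1000 UMIs, which left out cells with fewer (674 and 1450 of DMSO, 615 and 503 of TSA, 692 and 1718 of E6R), the median cell had a mitochondrial share of 6.4% and 6.2% under DMSO, 5.6% and 9.9% under TSA, and 1.7% and 1.9% under E6R. Unthinned medians were 6.73% and 6.44%, 4.93% and 9.83%, and 1.79% and 2.38%. The middle range of thinned cells, from the 25th to the 75th percentile, ran from 3.7% to 9.85% and 4.3% to 8% under DMSO and from 0.8% to 3% and 0.6% to 3.9% under E6R. TSA replicate 1 was the widest, from 1.7% to 9.8%, and TSA replicate 2 ran from 7.5% to 12.7%. The E6R value was thus low in most cells of both libraries, and the TSA replicates differed in the whole lower part of their distributions. The nuclear share of the median thinned cell was 1.7% and 2.1% under DMSO, 1.8% and 1.7% under TSA and 2.1% and 2.0% under E6R.

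**Figure D2:**
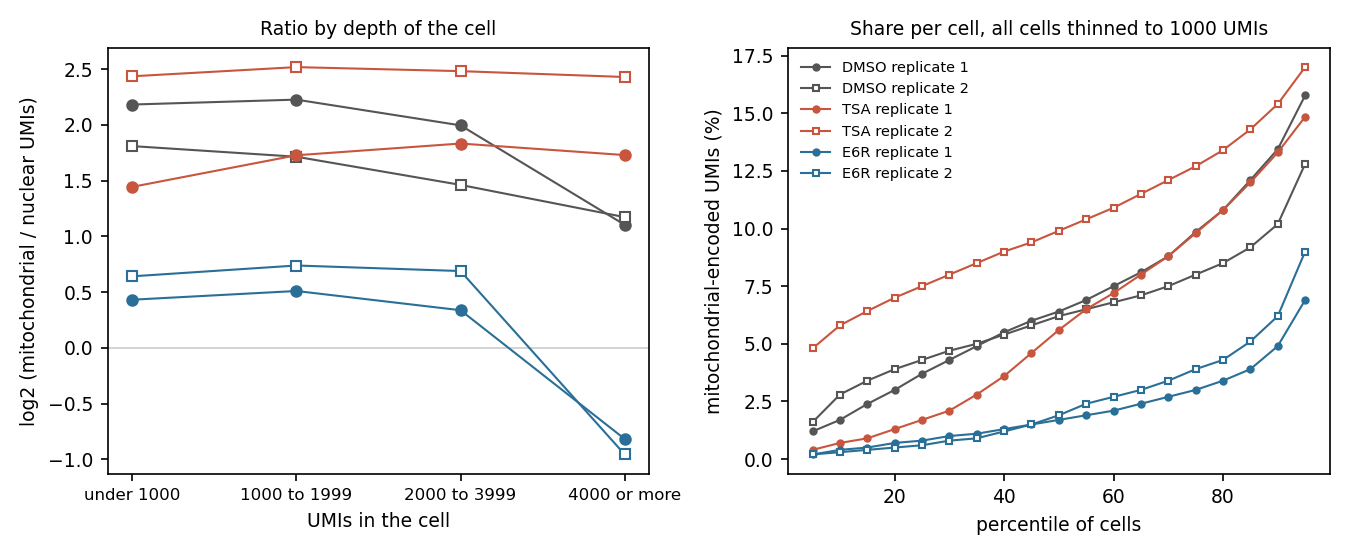
Left, the log2 ratio of mitochondrial-encoded to nuclear-encoded UMIs by number of UMIs in the cell; right, the percent of mitochondrial-encoded UMIs per cell at the 5th to 95th percentile of cells, each cell thinned to 1000 UMIs. Grey is DMSO, red TSA and blue E6R, with filled circles for replicate 1 and open squares for replicate 2; both E6R lines run below both DMSO lines in all 4 depth classes.

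Single genes were tested with edgeR's quasi-likelihood test on the UMI sums of the 6 libraries, with Benjamini-Hochberg adjustment over the 16763 genes tested, and a gene is called at an adjusted p under 0.05. Adjusted p-values for genes come from this test. Of the 111 members, 106 passed the low-count filter, 93 nuclear and all 13 mitochondrial; CPM values below are scaled by the TMM factors of that fit. The 5 untested members were COX4I2, COX6A2, COX7A1, COX7B2 and COX8C.

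For E6R against DMSO, edgeR called 0 members, as it called 0 of the 16763 genes (0.0%). At an unadjusted p under 0.05 there were 33 members, all 13 mitochondrial and 20 of 93 nuclear, against 17.4% of all genes, and DESeq2 called 16 members, the 13 mitochondrial genes and 3 nuclear genes (2.02% of all genes). The edgeR test with the replicate number as a block called 7 members, all mitochondrial, where it called 0.113% of all genes. Every mitochondrial gene had both E6R libraries below both DMSO libraries, against 22.7% of all genes. Their log2 fold changes ran from -3.67 to -0.997 with a median of -1.54, and their adjusted p-values from 0.147 to 0.209, while the median of all genes was 0.03.

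The 2 lowest fitted values belonged to complex I subunits. MT-ND4, part of the proton-pumping membrane arm (chrM:10760-12137, plus strand), was at 14626 and 10503 CPM under DMSO, 9476.5 and 14780.4 under TSA, and 1813 and 2110.2 under E6R. TSA overlapped DMSO for this gene and E6R lay far below both (log2 fold change against DMSO -2.68 ± 0.31 SE, edgeR adjusted p = 0.147). MT-ND6 (chrM:14149-14673), the one protein gene on the minus strand of the mitochondrial genome, was at 500.3 and 281 CPM under DMSO, 85.0 and 174 under TSA and 23.3 and 38.0 under E6R. Both agents left it below both DMSO libraries: it fell under TSA by a log2 fold change of -1.59 ± 0.42 SE (edgeR adjusted p = 0.0255), and E6R gave -3.67 ± 0.46 (adjusted p = 0.187). The TSA call was lost without DMSO replicate 1 (-1.07, adjusted p = 0.149), without TSA replicate 1 (-1.14, 0.156) and without the cap on MT- UMIs (-1.35, 0.0545). The sources used here do not say how the counting treated strand, so reads of MT-ND6 and of transcripts running across it from the plus strand cannot be told apart.

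The other complex I genes were less far below DMSO under E6R. MT-ND1 was at 4352 and 4397 CPM under DMSO, 4406 and 7513 under TSA and 1045 and 1225 under E6R (-1.95 ± 0.29 SE against DMSO). MT-ND5 was at 1800 and 2239, 2228 and 4207, and 446 and 663 CPM in the same order (-1.87 ± 0.35). Neither was called for TSA against DMSO by the edgeR test, with adjusted p = 0.261 and 0.170. With the replicate number as a block, edgeR called MT-ND5 higher (adjusted p = 0.0393).

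MT-ND2, MT-ND3 and MT-ND4L, also subunits of the membrane arm, rose under TSA. MT-ND3 was at 649.7 and 877 CPM under DMSO and 1834 and 2929.7 under TSA (log2 fold change 1.64 ± 0.28 SE, edgeR adjusted p = 0.00543), and at 368 and 333 CPM under E6R. MT-ND2 was at 2775 and 2786 CPM under DMSO, 4913 and 8271 under TSA (1.25 ± 0.29, adjusted p = 0.0152) and 1534 and 1252 under E6R. MT-ND4L was at 209 and 233 CPM under DMSO, 346 and 760.4 under TSA (1.32 ± 0.35, adjusted p = 0.0259) and 98.1 and 77.8 under E6R. For these genes the 3 treatments did not overlap, with TSA highest and E6R lowest. The MT-ND3 call was kept in each setting tried, while the calls of MT-ND2 and MT-ND4L were lost when either DMSO replicate or TSA replicate 2 was left out (adjusted p = 0.067 to 0.153), and that of MT-ND4L also with total counts as the scaling (0.052).

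Complex IV and V genes also had E6R lowest. MT-CO3, a core subunit of cytochrome c oxidase, rose under TSA, from 4721 and 6667 CPM to 9732 and 17495 CPM (1.26 ± 0.32, edgeR adjusted p = 0.0233), and stood at 2166 and 2372 CPM under E6R. Its TSA call was lost without DMSO replicate 1 (1.07, adjusted p = 0.109) and without TSA replicate 2 (0.81, 0.15), and missed the threshold with a cap of 10% on MT- UMIs (1.09, 0.0532) and without the 5% of cells with most UMIs (1.11, 0.0513). MT-CO1 and MT-CO2, the catalytic metal-binding subunits, were not called for TSA (adjusted p = 0.0768 and 0.064). Other settings did call them, among them DESeq2 (adjusted p = 0.0325 and 0.0244). So did edgeR with the replicate number as a block (0.00608 and 0.0181) and over cells with at least 1000 genes (0.0442 and 0.0347). MT-CO1 was at 4741 and 7892 CPM under DMSO, 8659 and 15871 under TSA and 1566 and 1774 under E6R. MT-CO2 was at 6537 and 8111, 9767 and 16568, and 2684 and 2355 CPM in that order. In both genes the E6R libraries were the lowest and the TSA libraries the highest.

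MT-ATP6 and MT-ATP8 encode parts of the membrane sector of ATP synthase, and their reading frames overlap. MT-ATP6 was at 8643 and 9365 CPM under DMSO, 10536 and 16979 under TSA and 2446 and 1892 under E6R. MT-ATP8 was at 572 and 737, 659 and 1483, and 256 and 219 CPM. MT-CYB, the mitochondrial subunit of complex III, was at 1934 and 2738 CPM under DMSO, 3312 and 5600.5 under TSA and 1036 and 589 under E6R. None of the 3 was called for TSA (adjusted p = 0.141, 0.171 and 0.089), and all had both E6R libraries below both DMSO libraries. MT-CYB was called higher for TSA in other settings, among them DESeq2 (adjusted p = 0.0494) and edgeR with the replicate block (0.0399).

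Set directly against TSA, E6R had all 13 mitochondrial genes called lower, where edgeR called 19.5% of all genes lower and 38.2% in either direction. The log2 fold changes ran from -2.88 (MT-CO1) to -2.07 (MT-ND6), and the adjusted p-values from 0.000637 to 0.00755. Leaving out TSA replicate 2, the library with the highest mitochondrial share, lost the call of MT-ND6 (-1.47) and kept the other mitochondrial calls. Without the 5% of cells with most UMIs, 12 of the 13 were called and MT-ND6 again missed the threshold (-1.47, edgeR adjusted p = 0.0545). MALAT1 and NEAT1, RNAs kept in the nucleus, were used as a sign of the nuclear and cytoplasmic makeup of the RNA. They summed to 1641 and 2263 CPM under DMSO, 3479 and 3151 under TSA and 1115 and 1589 under E6R, so they were lowest under E6R and highest under TSA, with no overlap, and their part in these results was not tested.

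The 13 genes did not keep their proportions. MT-ND4 made up 28.1% and 18.5% of mitochondrial UMIs under DMSO, 14.4% and 13.1% under TSA and 11.7% and 14.2% under E6R. MT-ND6 made up 0.961% and 0.494%, 0.129% and 0.155%, and 0.151% and 0.255%. Both shares were lower in all 4 treated libraries than in both DMSO libraries, and the DMSO libraries themselves differed widely. The share of MT-ATP6 was also lower in all 4, at 16.6% and 16.5% under DMSO, 16.0% and 15.1% under TSA and 15.8% and 12.7% under E6R. The share of MT-ND2 was 5.33% and 4.90% under DMSO, 7.45% and 7.34% under TSA and 9.91% and 8.40% under E6R. MT-ND3 took 1.25% and 1.54%, 2.78% and 2.60%, and 2.38% and 2.24%. MT-CO3 took 9.07% and 11.7%, 14.8% and 15.5%, and 14.0% and 15.9%. These 3 shares, and those of MT-CO2 and MT-ND4L, were higher in all 4 treated libraries than in both DMSO libraries. The 13 shares of a library add up to a fixed whole, so a lower share of MT-ND4 by itself raises the others. MT-CO2 took 12.6% and 14.3% under DMSO, 14.8% and 14.7% under TSA, and 17.3% and 15.8% under E6R. How much of these rises remains with MT-ND4 set aside was not tested. Both agents are compared with the same 2 DMSO libraries, so these shifts are not independent of each other. MT-ND5 overlapped between DMSO and each agent, at 3.46% and 3.94% under DMSO, 3.38% and 3.74% under TSA and 2.88% and 4.45% under E6R.

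**Figure D3:**
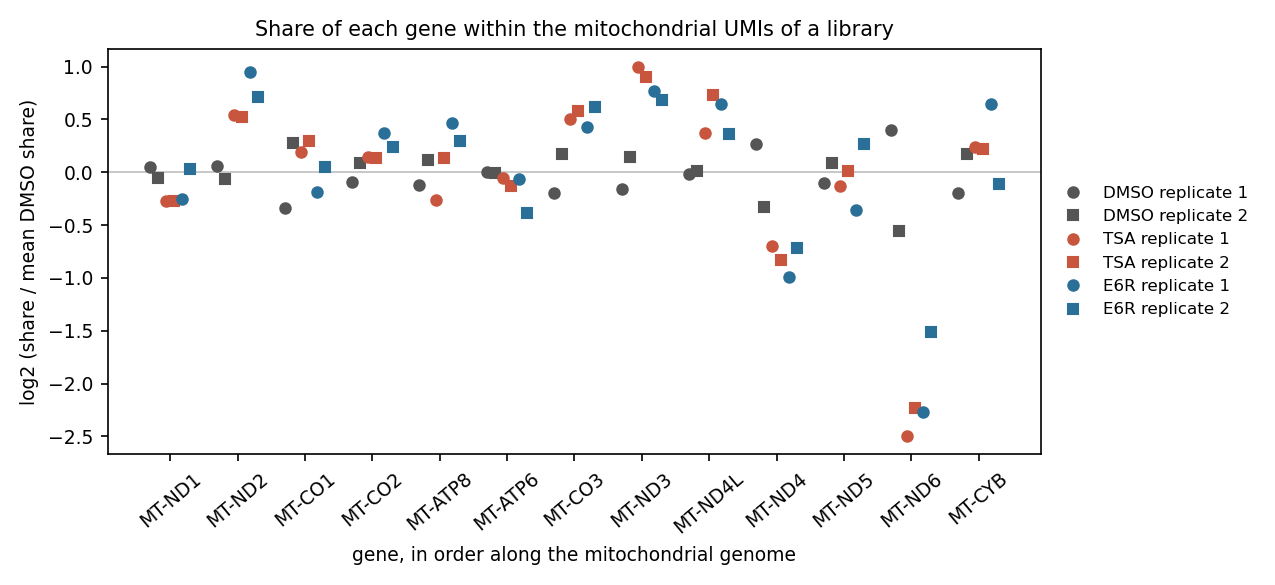
Share of each gene in the mitochondrial UMIs of a library, as the log2 ratio to the mean DMSO share, with genes in order along the mitochondrial genome; grey is DMSO, red TSA and blue E6R, circles replicate 1 and squares replicate 2. MT-ND4, MT-ND6 and MT-ATP6 lie below both DMSO points in the 4 treated libraries, and MT-ND2, MT-CO2, MT-CO3, MT-ND3 and MT-ND4L above both. The shares of a library add up to a fixed whole, so they are not independent.

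Among nuclear members, TSA gave calls in both directions. Of all 106 tested members, 29 were called for TSA against DMSO, where 29.7% of all genes were called; 24 of those 29 were nuclear, a share of 25.8% of 93 that was not above the background. The nuclear calls were 9 higher and 15 lower, where 16.2% of all genes were higher and 13.5% lower. The nuclear split depended on the processing. It was 17 higher and 11 lower over all deposited barcodes, 14 and 14 over cells with at least 300 genes, and 20 and 18 with the replicate number as a block. With total counts in place of TMM, 5 were higher and 20 lower, and the median of the nuclear members changed from 0.07 to -0.24 as the median of all genes changed from -0.01 to -0.32. Leaving out either DMSO library gave 17 members called, leaving out the first TSA library 15, and leaving out the second TSA library 4. Calls over all genes then came to 14.0%, 15.0%, 9.84% and 7.79%.

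By complex, the shares called for TSA against DMSO were 31.1% (I), 25% (II), 30% (III), 14.3% (IV) and 21.1% (V), against 29.7% of all genes. Complex I, the NADH dehydrogenase, had 3 members higher and 11 lower of 45 tested: 1 higher and 3 lower of 7 core subunits, 2 higher and 6 lower of 30 accessory subunits, and 2 lower of 8 assembly factors. Complex II had 1 higher of 4, complex III 1 higher and 2 lower of 10, complex IV 2 higher of 14 tested and complex V 2 higher and 2 lower of 19. Cytochrome c (CYCS) was not called. Whether the complexes differ from each other was not tested.

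**Figure D4:**
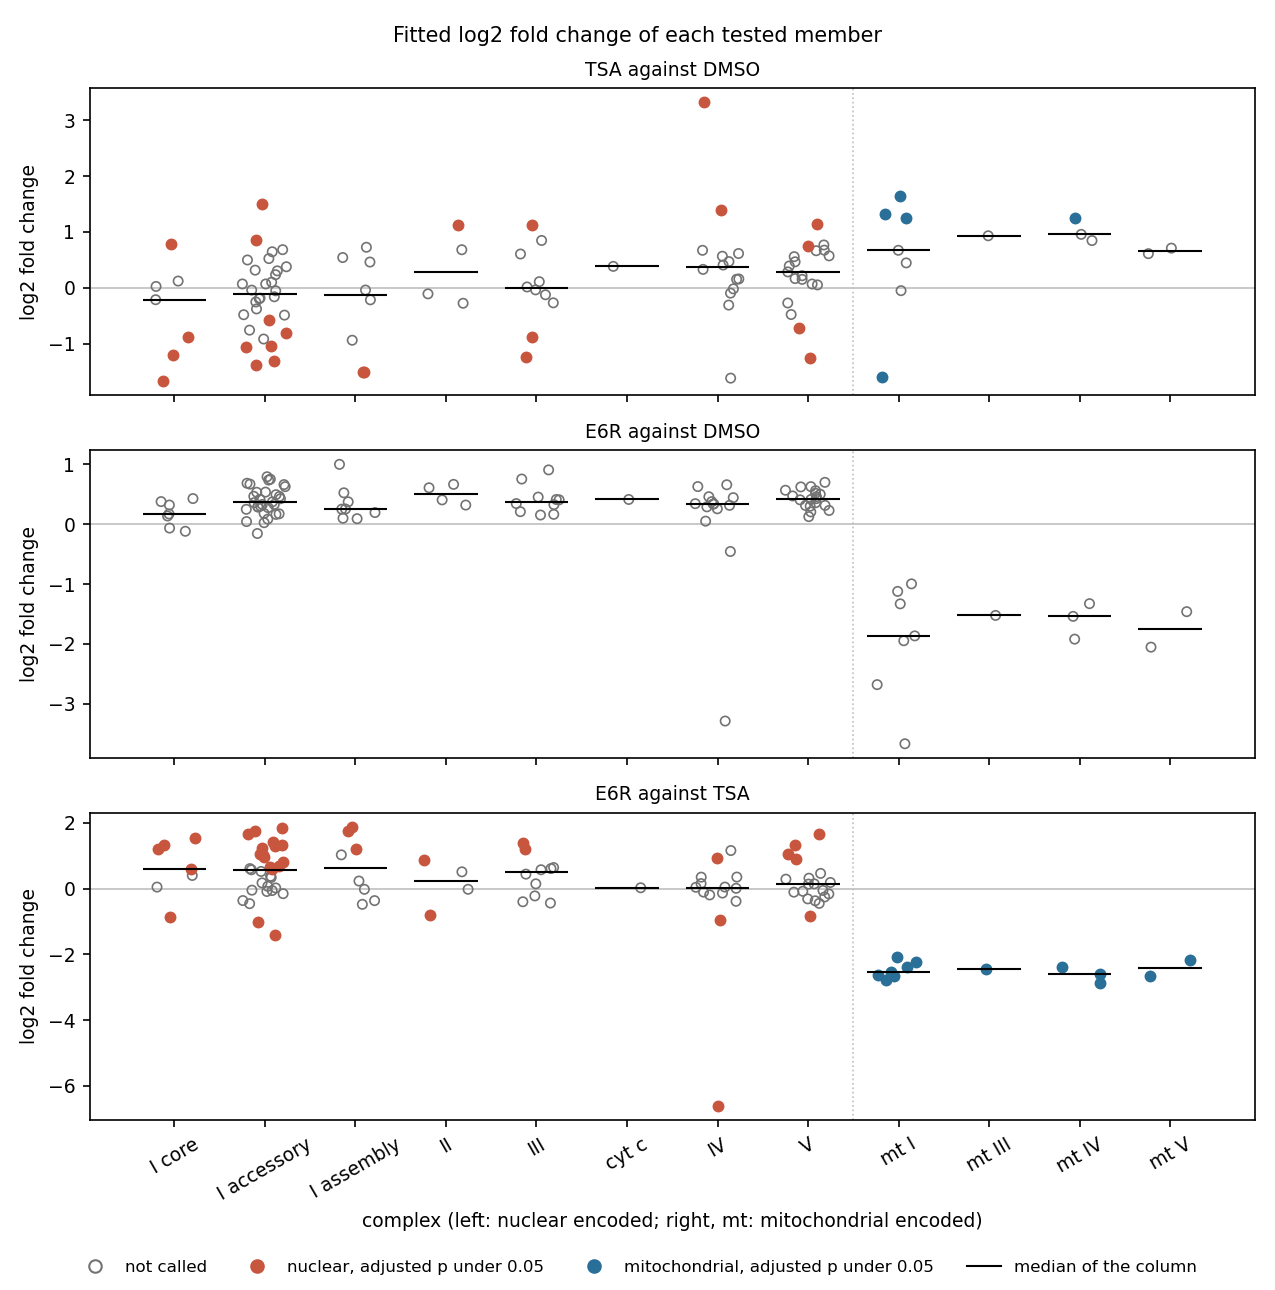
Fitted log2 fold change of each of the 106 tested members for TSA against DMSO (top), E6R against DMSO (middle) and E6R against TSA (bottom), by complex, with nuclear genes left of the dotted line and mitochondrial genes right of it; filled points have an edgeR adjusted p under 0.05 and black lines are medians. E6R against DMSO has no filled point, 88 of 93 nuclear points above 0 and 13 of 13 mitochondrial points below 0.

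Complex I subunits that fell under TSA included accessory and core subunits. NDUFA9, an accessory subunit (chr12:4649095-4694317, plus strand), was at 134 and 95.2 CPM under DMSO, 57.1 and 35.7 under TSA and 168 and 147 under E6R (-1.30 ± 0.28 SE, edgeR adjusted p = 0.0121). Both TSA libraries lay below the other 4. The call was lost without DMSO replicate 1 (adjusted p = 0.0781) or without TSA replicate 2 (-0.97, adjusted p = 0.105). Among the core subunits of the electron-carrying arm, NDUFS3 and NDUFV2 fell (log2 fold changes -0.88 and -1.20), and NDUFV1, which binds NADH, rose.

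NDUFAB1, the mitochondrial acyl carrier protein, which is also a complex I subunit (chr16:23581002-23596356, minus strand), was at 107 and 179.6 CPM under DMSO, 71.4 and 39.3 under TSA and 189.9 and 206 under E6R (TSA -1.37 ± 0.34 SE, edgeR adjusted p = 0.0199). Without DMSO replicate 2 or without TSA replicate 2 it was not called (adjusted p = 0.102 and 0.139). NDUFAF5, a complex I assembly factor (chr20:13784950-13821582, plus strand), was at 32.3 and 42.8, 14.4 and 12.2, and 36.1 and 53.4 CPM (-1.50 ± 0.28, adjusted p = 0.00739), and was not called without TSA replicate 2 (-1.35, adjusted p = 0.0777). UQCRFS1, the Rieske iron-sulfur protein of complex III (chr19:29205321-29213541, minus strand), was at 118 and 142, 58.7 and 50.8, and 118 and 171 CPM (-1.25 ± 0.24, adjusted p = 0.0078). Leaving out TSA replicate 1 or 2 ended that call (adjusted p = 0.0512 and 0.083). In each of these genes both TSA libraries lay below the other 4.

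Members that rose under TSA came from every complex, with UQCRHL, described below, the one of complex III. NDUFA2, an accessory subunit (chr5:140638740-140647785, minus strand), was at 134 and 184 CPM under DMSO, 422 and 477 under TSA and 148 and 189.7 under E6R (1.50 ± 0.24 SE, edgeR adjusted p = 0.00414), and the call was kept in each setting tried. Its span overlaps TMCO6 and IK on the opposite strand in the files, and without the strand rule their reads cannot be told apart from its own. COX6A1, the widely expressed form of a complex IV subunit (chr12:120438090-120440742, plus strand), was at 157 and 223, 480.2 and 524, and 209.9 and 307 CPM (1.40 ± 0.26, adjusted p = 0.00755), and missed the threshold without TSA replicate 2 (adjusted p = 0.0526). SDHA, the flavoprotein that oxidizes succinate (chr5:218241-256700, plus strand), was at 137 and 97.5, 276 and 233, and 151 and 142 CPM (1.12 ± 0.23, adjusted p = 0.00957). It was not called without DMSO replicate 2 (0.81, adjusted p = 0.0789) or without TSA replicate 1 (1.02, 0.0679).

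ATP5MPL, a small subunit of the ATP synthase membrane sector (chr14:103912288-103928269, minus strand), was at 257 and 335 CPM under DMSO, 535 and 768 under TSA and 325 and 403 under E6R (1.14 ± 0.26 SE, edgeR adjusted p = 0.0144). The call was lost without DMSO replicate 1 (adjusted p = 0.0786) and without TSA replicate 2 (adjusted p = 0.101). NDUFV3, an accessory subunit (chr21:42879644-42913304, plus strand), was at 157 and 178, 285 and 319, and 123 and 178 CPM (0.85 ± 0.23, adjusted p = 0.0278). It was not called when any single DMSO or TSA library was left out (adjusted p = 0.0858 to 0.133), nor with total counts as the scaling (0.54, adjusted p = 0.114), and it missed the threshold without the 5% of cells with most UMIs (0.054) and with cells thinned to 1000 UMIs (0.0569). NDUFV1 was at 253 and 236, 449.6 and 392, and 197 and 271 CPM (0.78 ± 0.22, adjusted p = 0.0325), and was likewise lost without any of these 4 libraries and with total counts.

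Promoters are shown for members called in each direction and for 1 uncalled member, because the factors NRF1 and GABP are known to act at many respiratory genes. Stretches of 120 bases that end just before the RefSeq start of the gene (GRCh38.p14, given on the gene's strand) were taken for SDHA (chr5:218200-218319, plus), COX6A1 (chr12:120437993-120438112, plus), NDUFA9 (chr12:4648994-4649113, plus), UQCRFS1 (chr19:29213152-29213271, minus) and SDHD (chr11:112086753-112086872, plus). Some RefSeq starts differ from the gene spans given above, which are from GENCODE 29. Capitals mark the letters GCGCA, any base, GCGC, a core of the NRF1 site, CCGGAAGT, a GABP site, or GGGCGG, an SP1 site, on either strand.
SDHA: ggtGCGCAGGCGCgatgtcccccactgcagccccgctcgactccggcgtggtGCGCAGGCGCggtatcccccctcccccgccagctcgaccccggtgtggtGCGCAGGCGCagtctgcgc
COX6A1: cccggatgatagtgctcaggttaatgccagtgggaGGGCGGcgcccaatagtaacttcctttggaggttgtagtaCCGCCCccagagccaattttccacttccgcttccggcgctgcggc
NDUFA9: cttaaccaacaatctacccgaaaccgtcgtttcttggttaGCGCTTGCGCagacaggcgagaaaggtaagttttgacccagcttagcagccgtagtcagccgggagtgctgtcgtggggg
UQCRFS1: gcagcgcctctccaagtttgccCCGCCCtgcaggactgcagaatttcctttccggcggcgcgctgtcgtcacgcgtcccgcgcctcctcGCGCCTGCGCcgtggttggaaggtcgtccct
SDHD: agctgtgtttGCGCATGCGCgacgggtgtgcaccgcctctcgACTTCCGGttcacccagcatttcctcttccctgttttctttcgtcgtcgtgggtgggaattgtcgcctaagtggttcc
SDHA holds the NRF1 letters 3 times in the stretch shown and 4 times in the 250 bases before its start, whereas NDUFA9, UQCRFS1 and SDHD hold them once. COX6A1 has the SP1 letters at 2 places, once on each strand, and UQCRFS1 has them once in the stretch shown.

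RefSeq gave promoters for 76 of the 98 nuclear members. In the 250 bases before the start, searched on both strands, the NRF1 letters were present in 14 of 76 (18.4%), against 1509 of 27305 RefSeq promoters (5.53%). The GABP letters were in 9 of 76 (11.8%, against 3.64%), the SP1 letters in 38 of 76 (50%, against 42.3%), AAGATGGC of YY1 in 1 of 76 (1.32%, against 1.37%) and TCAAGGTCA of ERR in 0 of 76 (against 0.319%). No motif of the 5 contains another. For the NRF1 letters the split by TSA call was 1 of 6 members higher, 3 of 11 lower and 9 of 56 not called, and the GABP letters were in 0 of the 17 called members with a promoter and 9 of the 56 not called. A match is a description of letters and not of binding, and the numbers by call are small.

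E6R against DMSO called no nuclear member, and the fitted values nevertheless lay mostly on one side. Of the 93 nuclear members, 88 had a fitted log2 fold change above 0, with a median of 0.36, where 8725 of 16763 genes lay above 0 with a median of 0.03. Both E6R libraries were above both DMSO libraries for 58 nuclear members, where 24.6% of all genes were, and below them for 1 (COX6B2). By complex, the medians were 0.33 for complex I (42 of 45 above 0), 0.51 for complex II (4 of 4), 0.38 for complex III (10 of 10), 0.34 for complex IV (12 of 14) and 0.43 for complex V (19 of 19). With every cell thinned to 1000 UMIs, 74 of 93 lay above 0 with a median of 0.16, so the displacement was smaller at that depth.

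Set against TSA, E6R had 29 nuclear members called higher and 7 lower of 93 (38.7%, where 38.2% of all genes were called, 18.7% higher). Complex I held 21 of the 29 and 3 of the 7, with 14 of its 30 accessory subunits and 4 of its 7 core subunits higher. NDUFAB1 (1.84 ± 0.34 SE, edgeR adjusted p = 0.0048), NDUFA9 (1.77 ± 0.28, 0.00261) and NDUFAF5 (1.75 ± 0.28, 0.00261), which fell under TSA, were higher under E6R than under TSA. NDUFB5, an accessory subunit of the membrane arm (chr3:179604690-179627647, plus strand), was at 107 and 75.5 CPM under DMSO, 67.2 and 29.5 under TSA and 172 and 132 under E6R (E6R against TSA 1.65 ± 0.38, adjusted p = 0.0116; not called without TSA replicate 2, 1.18, adjusted p = 0.0607). The members lower under E6R than under TSA were NDUFA2 (-1.41 ± 0.24, adjusted p = 0.00321), NDUFV3 (-1.01), COX6A1 (-0.96), NDUFV1 (-0.85), ATP5MPL (-0.84), SDHA (-0.80) and COX6B2, all of which were called higher for TSA against DMSO. The 2 comparisons share the TSA libraries. The NDUFA2 call was kept in each setting tried. SDHA was not called without any single TSA or E6R library (edgeR adjusted p = 0.0682 to 0.152), COX6A1 and NDUFV1 without either TSA library or E6R replicate 1 (0.0664 to 0.121), and NDUFV3 without TSA replicate 2 or E6R replicate 1 (0.0793 and 0.0599). ATP5MPL was lost without TSA replicate 2, E6R replicate 1 or either DMSO library (0.0525 to 0.237), and SDHA, ATP5MPL and NDUFV1 were also lost with total counts and with no low-count filter. Without TSA replicate 2, 25 members were called in place of 49, and 13 of those were nuclear.

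Several subunits exist as paralogs used in particular tissues or conditions, and their UMIs showed which forms these cells used. COX4I2, COX6A2 and COX7A1, known from lung, heart or skeletal muscle, had 0 UMIs in each library, which allows up to 0.637 CPM in the shallowest library and 0.113 CPM in the deepest. Their partners were plentiful: COX4I1 was at 657 to 1017 CPM over the 6 libraries, COX6A1 as above, and COX7A2 at 333 to 653 CPM. COX7B2 had at most 1 UMI per library beside 1058 to 10063 UMIs of COX7B. COX8C had 0 and 0 UMIs under DMSO, 17 and 4 under TSA and 5 and 7 under E6R beside 777 to 6538 of COX8A. NDUFA4L2, a hypoxia-responsive relative of NDUFA4, had 2 and 28, 9 and 14, and 2 and 107 UMIs, so its replicates differed more than its treatments.

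COX6B2, a form of complex IV subunit VIb known from testis (chr19:55349306-55354814, minus strand), had 8 and 2 UMIs under DMSO, 126 and 128 under TSA and 2 and 2 under E6R. These were 1.70 and 0.383, 9.57 and 11.1, and 0.126 and 0.0752 CPM, and the TSA libraries stood apart. It passed the low-count filter only through them, so its calls in the counts above, higher for TSA and lower for E6R against TSA, had a direction that the filter fixed, and its test is not given. From the summed UMIs, TSA was 10.2 times DMSO (exact 95% counting interval 5.48 to 21.6) and 109 times E6R (42.1 to 404), where E6R had 4 UMIs in all. Intervals and limits cover counting error only. Its share of the COX6B1 and COX6B2 pair was 0.813% and 0.130% under DMSO, 3.44% and 3.72% under TSA, and 0.0518% and 0.0274% under E6R. COX6B1 itself was at 207 and 294 CPM under DMSO, 269 and 288 under TSA and 244 and 275 under E6R, with overlapping libraries.

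UQCRHL, a single-exon copy of the complex III hinge gene UQCRH, took 4.17% and 4.18% of the UMIs of the pair under DMSO, 6.23% and 10.1% under TSA and 3.99% and 5.26% under E6R. It was called higher for TSA (1.13 ± 0.33 SE, edgeR adjusted p = 0.0373), with 8.92 and 12.8 CPM under DMSO against 18.8 and 28.7. It was not called without any single DMSO or TSA library (log2 fold changes 0.83 to 1.43). It also lost the call with total counts (edgeR adjusted p = 0.092), without the 5% of cells with most UMIs (0.0776) and with cells thinned to 1000 UMIs (0.075). Because it is nearly a copy of UQCRH, and ATP5MGL likewise resembles ATP5MG, the counting could have divided reads between copies, and both are uncertain.

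Further members were named for their roles or levels. The other succinate dehydrogenase subunits were not called for TSA: SDHB was at 41.4 and 42.1 CPM under DMSO, 43.5 and 25.4 under TSA and 69.2 and 58.1 under E6R, SDHC at 128 and 100.03, 121 and 90.4, and 170.0 and 132, and SDHD at 17.6 and 18.4, 28.3 and 29.5, and 32.9 and 24.3. Other settings called SDHD higher for TSA, among them edgeR over cells with at least 300 genes (adjusted p = 0.0438) and over all deposited barcodes (0.043). All 4 subunits had both E6R libraries above both DMSO libraries, with edgeR adjusted p from 0.237 to 0.494. The same position was found for 58 of the 93 tested nuclear members and 24.6% of all genes. SDHB was called higher for E6R against TSA (0.88, edgeR adjusted p = 0.0363), a call lost in 6 settings, among them without TSA replicate 2 (0.55, 0.227) and without E6R replicate 1 (0.83, 0.0634). CYCS, the cytochrome c of these cells, was at 258 and 303 CPM under DMSO, 392 and 341 under TSA and 347 and 400.3 under E6R (adjusted p = 0.183 for TSA and 0.333 for E6R).

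ATP5IF1, the inhibitor that blocks reverse running of ATP synthase, was at 150.4 and 328 CPM under DMSO, 258 and 326 under TSA and 156 and 366 under E6R. Its spread within DMSO and within E6R exceeded any difference between treatments. NDUFA13 was at 341 and 419, 409 and 388, and 634 and 568 CPM, UQCRQ at 257 and 557, 642 and 822, and 533 and 549, and ATP5F1B, the catalytic beta subunit of ATP synthase, at 917 and 829.8, 1239.6 and 1051, and 1149.8 and 1019. Of these, NDUFA13 was called for E6R against TSA (0.59 ± 0.20 SE, edgeR adjusted p = 0.0487). That call was lost without any single TSA or E6R library (log2 fold changes 0.56 to 0.69). It was also lost with at least 300 genes (edgeR adjusted p = 0.0548), a cap of 10% on MT- UMIs (0.0667) and all deposited barcodes (0.0604). The same held without the 5% of cells with most UMIs (0.0839) and with cells thinned to 1000 UMIs (0.162). UQCRQ was called higher for TSA in other settings, among them edgeR with the replicate block (adjusted p = 0.0166).

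Other genes that serve the same pathway were counted from fixed lists, to be read against the 29.7% of all genes called for TSA against DMSO and 38.2% for E6R against TSA. Of 79 tested mitochondrial ribosomal proteins, which translate the 13 mitochondrial messages, TSA had 6 called higher and 13 lower (24.1%), E6R against DMSO had 0 called with 72 fitted above 0 (median 0.40), and E6R against TSA had 34 higher and 2 lower (45.6%). Of 13 genes of mitochondrial transcription and DNA upkeep, 2 rose under TSA (TFB1M and TWNK) and 0 were called for E6R against DMSO, where 11 were fitted above 0 (median 0.43). TFAM, which packages mitochondrial DNA and activates its transcription, was at 56.9 and 58.9 CPM under DMSO, 75.4 and 70.2 under TSA and 79.4 and 72.2 under E6R. Of 17 tested genes of mitochondrial RNA processing and stability, TSA raised LRPPRC, FASTKD3 and SUPV3L1 and lowered FASTKD2 and FASTK, and 13 were fitted above 0 for E6R against DMSO (median 0.50). So the fitted values of these supporting genes for E6R lay mostly above 0, as those of the nuclear subunits did, while the mitochondrial messages lay below.

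The list of 10 nuclear regulators of respiratory genes had 4 lower under TSA (NFE2L2, PPRC1, YY1 and GABPB1) and 0 higher; the same 4 were called higher for E6R against TSA. Of all genes, 13.5% were lower under TSA and 18.7% higher for E6R against TSA, and 4 of 10 is a small count. GABPB1, a subunit of GABP, was at 15.9 and 15.5 CPM under DMSO, 4.18 and 5.14 under TSA and 23.3 and 20.6 under E6R. Assembly factors of complexes III, IV and V (32 tested) had 2 higher and 7 lower under TSA, import genes (25 tested) had 1 higher and 4 lower, and the citric acid cycle (13 tested) had 3 higher and 0 lower, where 16.2% of all genes were higher. None of these lists had a gene called for E6R against DMSO.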

How the data were processed

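The authors deposited, per sample, whole-number UMI counts per gene and barcode, not normalized; STARsolo 2.7.9a and GRCh38 are named in the submitters' processing notes, and the annotation and strand rule are not given in the sources used here. Since cells are not replicates, 1 sum of counts per gene was made for each library, and no doublet caller was run. The sums of 6 libraries entered 1 fit with edgeR 4.0.16 (R 4.3.3): TMM, filterByExpr, the quasi-likelihood test with group as the only term, Benjamini-Hochberg over 16763 genes. SE is the absolute log2 fold change over the square root of F. The fit was tested on simulated data. DESeq2 1.42.0, other filters, thinning, scalings and leaving out libraries were alternatives. Library values were compared by exact two-sided permutation. Depth was 4206366 to 26180262 UMIs per sum. Gene spans are from GENCODE 29 (111 of 111 members matched by identifier) and promoters from RefSeq GRCh38.p14. Named were all mitochondrial genes, the 5 largest called rises and falls per comparison (mean of at least 20 CPM, no overlap), paralog sets, CYCS, ATP5IF1, SDH genes and 1 gene of each complex by mean CPM. A result that this rule would name is not reported here. The members and lists were chosen with earlier results of these data known.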

Additional observations from a re-analysis of the deposited data

Results flagged for a closer look

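A mitochondrial signal also appeared in barcodes that the comparisons did not use. In barcodes with under 500 genes, the 13 mitochondrial-encoded genes took 11.97% of UMIs in TSA replicate 1 and 14.9% in TSA replicate 2, above the 9.82% and 8.72% of the DMSO libraries, while the E6R libraries were at 3.75% and 4.33%. The barcodes with 500 or more genes that the 20% cap left out were 4.71% of such barcodes in TSA replicate 1 (95% Wilson interval 3.96% to 5.60%) and 6.16% in TSA replicate 2 (5.41% to 7.002%). Both were above the DMSO values of 4.52% (3.68% to 5.53%) and 1.26% (0.927% to 1.71%), although the interval of TSA replicate 1 overlaps that of DMSO replicate 1. For E6R the values were 0.789% and 1.42%. The intervals cover counting error only. E6R was lowest in the small barcodes as in the cells. TSA replicate 1 lay above both DMSO libraries in the small barcodes, but in cells under the cap it lay between them (6.08% against 5.83% and 6.20%).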

How the results depend on the processing

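No called fold change of a named member, and no difference in the ratio taken over all members together, changed sign under the alternatives run. Uncalled values did: MT-ND4 for TSA against DMSO ranged from -0.38 to 0.26, and ATP5IF1 for E6R against DMSO from -0.58 to 0.83. The nuclear median for TSA turned from 0.07 to -0.24 with total counts. Leaving out 1 library moved the members called from 29 to between 4 and 37 for TSA against DMSO and from 49 to between 25 and 53 for E6R against TSA, and kept 0 for E6R against DMSO. The E6R difference in the log2 ratio of mitochondrial to nuclear UMIs then ranged from -2.29 to -2.12 against DMSO and from -2.99 to -2.27 against TSA. For E6R against DMSO, 28 members were called with no low-count filter (14 nuclear higher, 1 nuclear lower, 13 mitochondrial), where 3.47% of all genes were, and 16 with DESeq2, where 2.02% were. With a cap of 10% MT- UMIs, the E6R difference from DMSO in that log2 ratio was -1.98. It was -1.86 without the 5% of cells with most UMIs and -1.55 with cells thinned to 1000 UMIs. Against TSA these were -2.25, -2.12 and -1.84. The E6R ratios themselves were -0.16 and 0.16 without those 5% of cells, and 0.15 and 0.43 with thinned cells. The 1% of cells with most UMIs held 10.2% and 22.9% of the UMIs of the E6R libraries, and 8.95% to 15.6% in the others. The cause of these shifts was not tested. Replicate numbers are shared between groups, but nothing says that they mark a shared batch, and 2 pairs per comparison cannot establish it. Deviations of same-numbered libraries correlated at 0.242 (DMSO and TSA), 0.564 (DMSO and E6R) and 0.166 (TSA and E6R) across 7515 genes, which are not independent. With the replicate block, 47 members were called for TSA, 7 for E6R against DMSO (all mitochondrial) and 56 for E6R against TSA, while calls over all genes came to 36.1%, 0.113% and 45.1%. Where 1 library of a group was left out, the lone library was assumed to vary like the other groups. Depth limits COX6B2, COX7B2, COX8C and NDUFA4L2, which rest on few UMIs, and the groups of 2 libraries limit every exact permutation test to p = 0.333.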
